A study of Mus musculus with 6 samples.

Results

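Interferon regulatory factors (IRFs) and STAT proteins are the transcription factors that switch on interferon genes and carry out the response to interferon. The 8 genes described here, Irf1, Irf2, Irf4, Irf5, Irf7, Irf8, Irf9 and Stat2, were taken by symbol, with every probe set of the array that is annotated to 1 of these symbols alone. That gave 12 probe sets of the 22690 on the array, for 8 genes of the 12393 that have a probe set with 1 symbol. All 8 genes passed the filter on low signals and were among the 7508 genes tested. Irf4 exceeded the array median on 3 of the 6 arrays, both at 1 h and the knockout at 0 h, and so passed through those.

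The cells were macrophages grown from the bone marrow of C57BL/6J mice, either wild type or knockout for IκBβ, the inhibitor of NF-κB that Nfkbib encodes. Marrow cells that did not adhere overnight were differentiated for 7 days in medium with 30% supernatant of L929 cells, the usual source of macrophage colony-stimulating factor. They were then left in lipopolysaccharide (LPS, a bacterial cell wall component sensed by TLR4) at 1 µg/ml for 0, 1 or 5 h. Each genotype and time had 1 Affymetrix Mouse Genome 430A 2.0 array, 6 in all, so the groups were wild type at 0 h, 1 h and 5 h and knockout at 0 h, 1 h and 5 h. The labels name the knockout arrays only as IkB, and they give no allele, age, sex, number of mice or pooling.

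As background, TLR4 signals through the adaptors MyD88 and TRIF, and TRIF leads to interferon β by way of the latent factor IRF3. Interferon β then acts back on the macrophage through its receptor, which assembles STAT2 and IRF9 into the ISGF3 complex. ISGF3 binds the interferon-stimulated response element (ISRE) of many antiviral genes, the IRFs bind closely related sequences, and STAT dimers bind the interferon-gamma activated site (GAS). NF-κB dimers bind κB sites, and several IRF genes are known targets of NF-κB or of interferon.

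Signals are linear MAS5 intensities on the deposited scale. Changes are log2 differences after every signal below 18.2, the 25th percentile of all values, had been raised to that floor. A call means a Benjamini-Hochberg adjusted p under 0.05 over all 7508 genes in 1 limma fit with genotype and time as additive terms, which leaves 2 residual degrees of freedom. Differences between the genotypes at a given time, or between times within a genotype, set 1 array against 1 and were not tested. A probe set's signal depends on its own probes, so levels were not compared between genes.

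The deleted gene separated the genotypes. Nfkbib read 477, 3330 and 5007 in wild type at 0, 1 and 5 h, against 30.5, 136 and 56.1 in knockout. Macrophage markers were present, with all 9 measured markers above the array median and a summed signal of 77978 to 99500. Xist signals were 52.1 to 80.4 on the wild-type arrays and 2149 to 5634 on the knockout arrays for the brightest probe set, and the Y-linked Eif2s3y was 570 to 859.9 in wild type and at most 10.7 in knockout. Sex and genotype therefore cannot be told apart in any difference below. The median signal of an array was 113 and 117 at 0 h and 70.7 and 65.2 at 5 h while the trimmed means were held at 500.2 to 500.3, so the direction of small changes depends on the scale. At the deposited scale the median change of all genes was -0.18 at 1 h and -0.56 at 5 h, and 48.2% and 26.6% of calls were higher. After median centring those medians were 0.00 and 0.20 and the shares 66.6% and 59.0%. For 5 h against 1 h the share of calls that were higher went from 28.9% to 60.2%.

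After 5 h of LPS, 5 of the 8 genes were called higher, Irf1, Irf2, Irf7, Irf8 and Stat2, and 1, Irf4, was called lower. Over all genes 19.5% were called higher and 53.9% lower in that comparison. Irf5 and Irf9 were not called. Both 5 h signals of Irf4 were under the floor, and its call was lost after quantile normalization and without the filter. The median change of the 8 genes was 1.28 on the log2 scale, against -0.56 over all genes tested, and it was 2.04 against 0.20 after median centring. After 1 h, limma called none of the 8 higher and 2 lower, Irf8 and Stat2, with 5.43% of all genes called higher and 5.85% lower. At an unadjusted p under 0.05 in limma, 2 of the 8 were higher and 2 lower at 1 h. Of all 7508 genes, 2471 passed that threshold, 745 of them higher and the rest lower. With an intensity trend limma also called 2 of the 8 higher and 2 lower. From 1 h to 5 h, 6 of the 8 were called higher and 1 lower, against 18.5% and 45.4% of all genes. The members' median for that step was 1.11, against -0.38 over all genes.

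**Figure D1:**
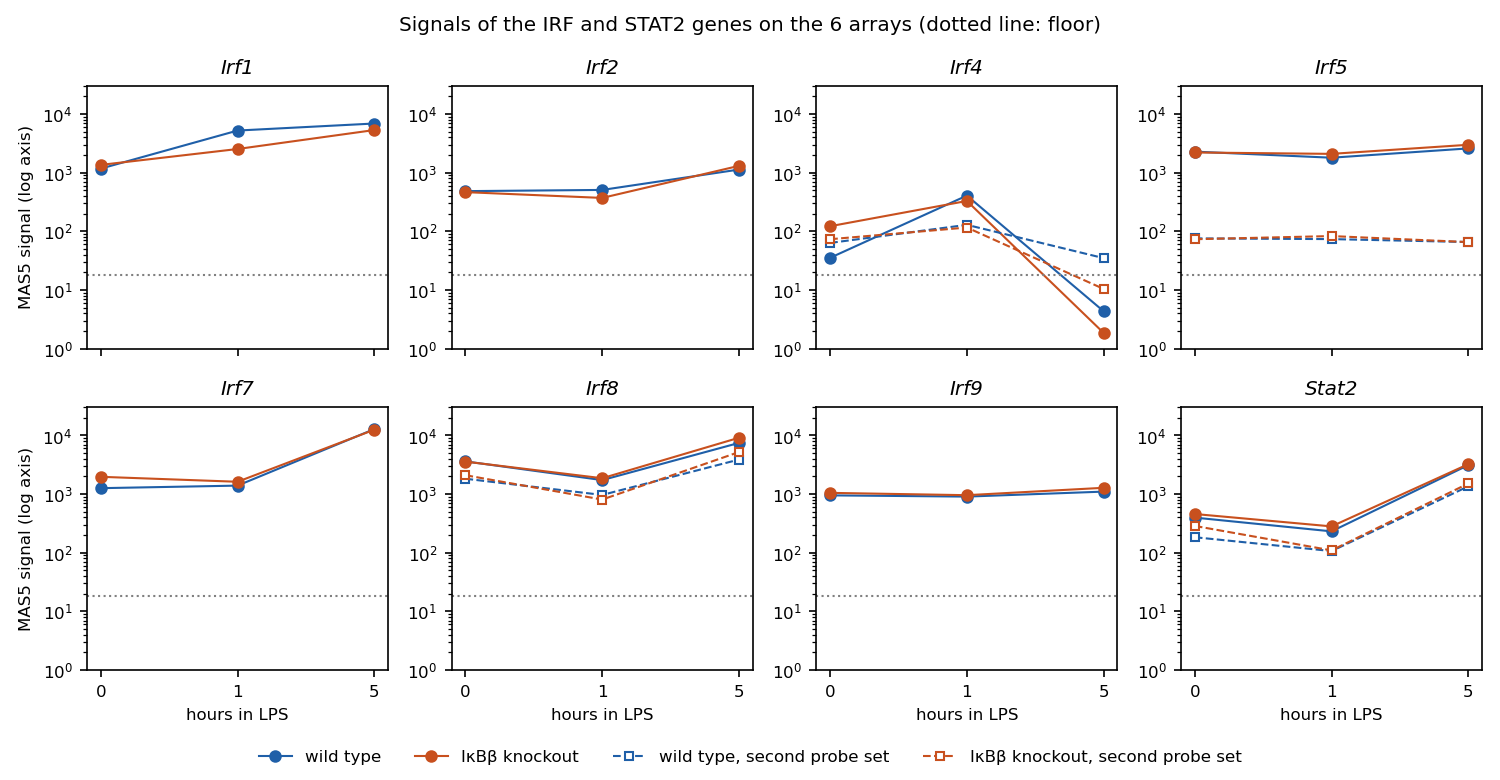
MAS5 signal (log axis, no unit) of the 8 genes on the 6 arrays, 1 panel a gene, against hours in LPS at evenly spaced positions (0, 1 and 5 h); each point is 1 array the lines join the arrays of a genotype, dashed lines with open squares are the other probe set of a gene, and the dotted line is the floor. Irf7 and Stat2 read highest at 5 h in both genotypes (12841 and 12536; 3122 and 3239), while Irf4 peaked at 1 h (406 and 329) and lay under the floor of 18.2 at 5 h.

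**Figure D2:**
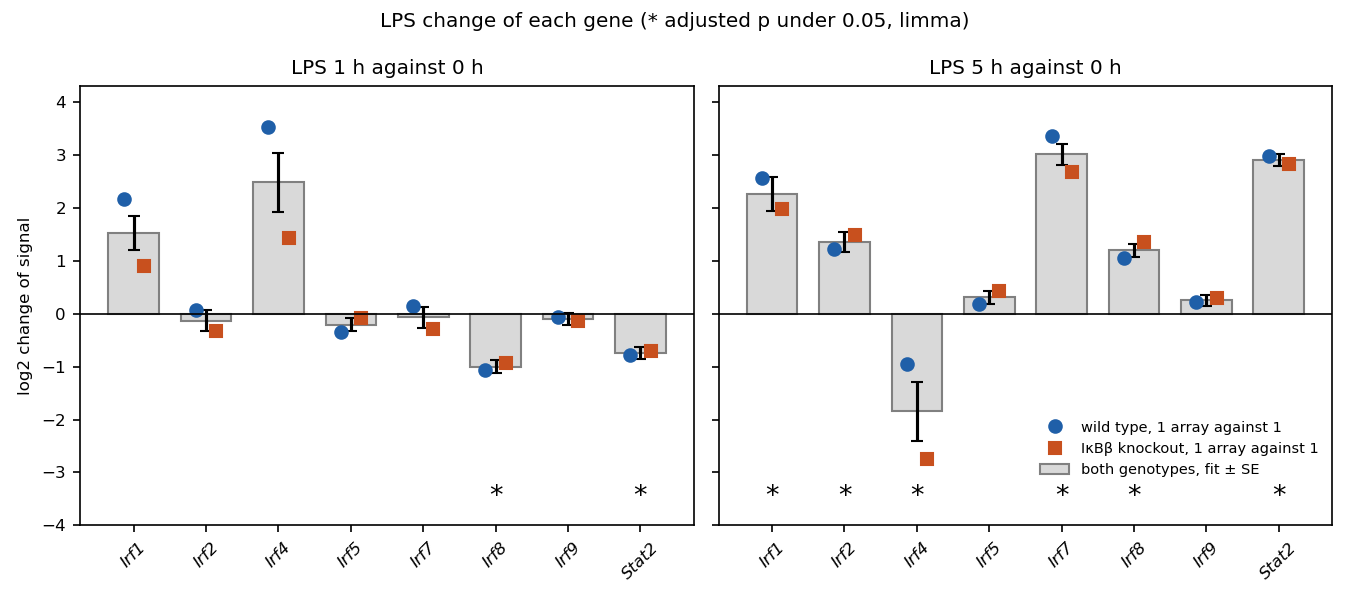
Log2 change with LPS for each gene at 1 h and 5 h; grey bars are the fitted change with its standard error, points are the change within each genotype (1 array against 1), and an asterisk marks an adjusted p under 0.05 in limma (values of Irf4 at 5 h are bounds, its 5 h signals being under the floor). Irf7 (3.01) and Stat2 (2.90) had the highest fitted changes of the 8 at 5 h, in the other order after quantile normalization, and the points of Irf1 at 1 h (2.16 and 0.90) and of Irf4 at 1 h (3.52 and 1.43) lay apart.

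Irf1, an activator that responds to interferon γ and to NF-κB, and Irf2, a relative that can hold down IRF1 targets, are described first. For each, a promoter window carries a match to a κB site as well as to GAS. RefSeq windows ran from 250 bases before to 50 bases after the start (GRCm38.p6). In its upstream window Irf1 has a GAS match, TTCNNNGAA, 90 to 82 bases before the start and a κB site 13 to 4 bases before it. The stretch shown is chr11:53769912-53770013 on the plus strand, with both matches in capitals. Irf2 has an ISRE core (GAAA, then 2 bases of any kind, then GAAA) and a GAS match in chr8:46739495-46739541, and a κB site in chr8:46739716-46739744, both on the plus strand.
Irf1: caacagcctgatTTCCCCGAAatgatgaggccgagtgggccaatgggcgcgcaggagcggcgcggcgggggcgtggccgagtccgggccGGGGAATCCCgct
Irf2, far stretch: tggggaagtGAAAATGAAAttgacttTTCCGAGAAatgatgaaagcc
Irf2, near stretch: ggcgggggtgggGGGGATTTCCagcctcg
Searched on both strands, the ISRE core was in 3.44%, GAS in 8.30% and the κB site in 8.46% of all 32851 promoter windows, and in a window of 3.99%, 9.55% and 9.55% of all 27025 genes. Of the 8 genes (11 windows), 2 had an ISRE core, 3 a GAS match and 2 a κB site. The downstream windows of Irf1 and Irf8 held no match to any of them. The matches are a description of the letters and not of binding.

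Irf1 (probe set 1448436_a_at) read 1171, 5219 and 6882 in wild type at 0, 1 and 5 h, and 1355, 2529 and 5325 in knockout. Both genotypes were lowest at 0 h and highest at 5 h, and no 0 h array overlapped a later one. The rise at 5 h was 2.26 ± 0.32 (log2, SE; 4.81-fold) with an adjusted p of 0.00420 in limma. At 1 h the fitted change was 1.53 ± 0.32 with an adjusted p of 0.0596, so it was not called, although both genotypes had higher signals than at 0 h. The change within wild type at 1 h was 2.16 and that within knockout 0.90. The 1 h change was called after median centring (1.71, adjusted p = 0.0207) and with an intensity trend (adjusted p = 0.00752). It was not called when any 1 array was left out (adjusted p = 0.0635 to 0.194). The step from 1 h to 5 h was 0.74 ± 0.32 and was not called (adjusted p = 0.112). It was called after median centring (1.32, adjusted p = 0.0107), with an intensity trend (adjusted p = 0.0347) and without the wild-type 1 h array (1.22, adjusted p = 0.0426), and it ran from 0.25 to 1.22 with arrays left out.

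Irf2 (1418265_s_at, a set whose probes may also match transcripts of other genes) read 484, 507 and 1130 in wild-type cells and 465, 371 and 1306 in knockout cells. The 4 arrays of 0 h and 1 h lay between 371 and 507, well below both 5 h arrays. Irf2 rose by 1.36 ± 0.19 (2.56-fold) at 5 h over 0 h (adjusted p = 0.00404) and by 1.49 ± 0.19 over 1 h (adjusted p = 0.00413). Its change at 1 h was -0.13 ± 0.19 (adjusted p = 0.657).

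Irf7, the factor that amplifies the interferon α and β response once it has been induced, had with Stat2 the highest fitted changes of the 8 genes at 5 h. Their order depends on the scale, with 3.01 for Irf7 and 2.90 for Stat2 as deposited and 2.93 and 2.97 after quantile normalization. The Irf7 signal (1417244_a_at) was 1263, 1396 and 12841 in wild-type cells and 1972, 1623 and 12536 in knockout cells. Both 5 h arrays stood above every 0 h and 1 h array, whose highest value was 1972. Irf7 rose by 3.01 ± 0.19 (8.04-fold, adjusted p = 0.000593) over 0 h and by 3.08 ± 0.19 over 1 h (adjusted p = 0.000909). At 1 h it was not called, with -0.07 ± 0.19 (adjusted p = 0.826).

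Irf5, which MyD88 signalling activates and which drives inflammatory cytokine genes, had a narrow range. Probe set 1460231_at read 2282, 1797 and 2588 in wild-type cells and 2207, 2090 and 2986 in knockout cells. In each genotype 1 h was the lowest and 5 h the highest array. Against 0 h Irf5 was not called at 1 h (-0.21 ± 0.12, adjusted p = 0.296) or 5 h (0.31 ± 0.12, adjusted p = 0.0823). From 1 h to 5 h it was called higher by 0.52 ± 0.12 (adjusted p = 0.0229), a call lost in the mean over both Irf5 probe sets (0.13, adjusted p = 0.359), without the filter (adjusted p = 0.0521) and without either 1 h or either 5 h array (adjusted p = 0.0557 to 0.139). The other Irf5 probe set, 1449678_at, stayed between 65.5 and 82.9 on all 6 arrays. After median centring Irf5 was called higher at 5 h over 0 h (1.07, adjusted p = 0.00302).

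Stat2 and Irf9 encode the subunits through which ISGF3 transactivates and recognises DNA. The Stat2 promoter window holds an ISRE core on the minus strand, 222 to 213 bases before the start, shown in capitals within chr10:128270264-128270297 of GRCm38.p6 as read on the plus strand.
Stat2: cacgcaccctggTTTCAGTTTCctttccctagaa

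Stat2 (1450403_at) read 398, 232 and 3122 in wild-type cells and 458, 282 and 3239 in knockout cells. Both genotypes were lowest at 1 h and highest at 5 h, and the 3 times did not overlap. Stat2 rose at 5 h by 2.90 ± 0.11 (7.45-fold, adjusted p = 0.000343) over 0 h and by 3.64 ± 0.11 (12.4-fold) over 1 h (adjusted p = 0.000672). At 1 h it fell by 0.74 ± 0.11 on the log2 scale (adjusted p = 0.0332). That early fall lost its call without any 1 of the 4 arrays of 0 h and 1 h (adjusted p = 0.163 to 0.202), without the filter on low signals (adjusted p = 0.0756), and after median centring (-0.56, adjusted p = 0.0685). The other Stat2 probe set, 1421911_at, read 184, 107 and 1358 in wild-type cells and 287, 110 and 1518 in knockout cells. It had the same order of times, and its change at 5 h was 2.64 (adjusted p = 0.0118) in a fit of every probe set with no filter.

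Irf9 moved little beside its partner. Probe set 1421322_a_at read 952, 907 and 1103 in wild-type cells and 1050, 959 and 1281 in knockout cells. Its changes against 0 h were -0.10 ± 0.10 at 1 h (adjusted p = 0.532) and 0.25 ± 0.10 at 5 h (adjusted p = 0.0926), neither called. From 1 h to 5 h it was called higher by 0.35 ± 0.10 (adjusted p = 0.0433), a call lost when any 1 array was left out (adjusted p = 0.0638 to 0.224). After median centring the 5 h change was 1.01 and was called (adjusted p = 0.00201), and after quantile normalization it was 0.34 (adjusted p = 0.0389).

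Irf8 and Irf4 are close relatives that bind DNA together with the ETS factor PU.1. IRF8 sets the monocyte and macrophage lineage, and IRF4 is known from lymphocytes, dendritic cells and alternatively activated macrophages. The upstream promoter window of Irf8 holds 2 GAS matches, 171 to 163 and 153 to 145 bases before the start. They are in capitals within chr8:120736175-120736225 on the plus strand of GRCm38.p6.
Irf8: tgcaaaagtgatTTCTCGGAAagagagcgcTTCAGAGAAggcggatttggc

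Irf8 (1416714_at) read 3614, 1733 and 7463 in wild-type cells and 3579, 1865 and 9140 in knockout cells. The 3 times were fully separated, with 1 h lowest and 5 h highest. Irf8 fell by 1.00 ± 0.12 at 1 h (adjusted p = 0.0211). It rose by 1.20 ± 0.12 (2.30-fold) at 5 h over 0 h (adjusted p = 0.00177) and by 2.20 ± 0.12 over 1 h (adjusted p = 0.000784). The 1 h fall lost its call without any 1 of the 4 arrays of 0 h and 1 h (adjusted p = 0.0966 to 0.152) and without the filter on low signals (adjusted p = 0.0742). The other Irf8 probe set, 1448452_at, read 1829, 968 and 3884 in wild-type cells and 2100, 807 and 5216 in knockout cells. In the unfiltered fit of every probe set, its change was -1.15 at 1 h (adjusted p = 0.141) and 1.20 at 5 h (adjusted p = 0.0480).

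Irf4 was the 1 member that peaked at 1 h. Probe set 1421173_at read 35.3, 406 and 4.33 in wild-type cells and 122, 329 and 1.85 in knockout cells. Both 1 h arrays stood above both 0 h arrays, and both 5 h arrays lay under the floor of 18.2, so a fall to 5 h is a bound. The fitted change at 1 h was 2.48 ± 0.56 with an adjusted p of 0.0691, not called, from 3.52 within wild type and 1.43 within knockout. Without the knockout 0 h array it was 3.45 and called (adjusted p = 0.0122). It was also called after median centring (2.66, adjusted p = 0.0294) and with an intensity trend (adjusted p = 0.0189). From 1 h to 5 h Irf4 fell by at least 4.33 on the log2 scale, at least 20.0-fold (adjusted p = 0.00426). The gene passed the filter through its 1 h peak and the knockout 0 h array, so none of its tests is independent of the filter. In the unfiltered fit of every probe set the step from 1 h to 5 h was also called lower (adjusted p = 0.0472). The change at 1 h was not called in that fit (adjusted p = 0.220). Against 0 h Irf4 fell by at least 1.85 (adjusted p = 0.0397). This call was lost after quantile normalization (-1.56, adjusted p = 0.0644), without the filter (adjusted p = 0.167), without the wild-type 5 h array (adjusted p = 0.0998) and without the knockout 5 h array (adjusted p = 0.210).

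The other Irf4 probe set, 1421174_at, read 63.3, 129 and 34.9 in wild-type cells and 73.3, 116 and 10.4 in knockout cells. Its order of times was the same, with 1 h highest and 5 h lowest. In the unfiltered fit of every probe set, its step from 1 h to 5 h was -2.28 (adjusted p = 0.0460) and the changes at 1 h (0.84) and 5 h (-1.43) were not called.

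Irf4 and Irf8 are also expressed by B cells and dendritic cells. Of 10 measured B cell and plasma cell markers, 5 exceeded an array median. Their summed signal was 4395, 6047 and 1504 in wild type at 0, 1 and 5 h and 4540, 7039 and 1548 in knockout, but the peak at 1 h was that of Prdm1 alone. Prdm1 read 531, 3361 and 924 on the wild-type arrays and 576, 4089 and 988 on the knockout arrays. The other 9 markers summed to 3864, 2686 and 580.1 on the wild-type arrays and to 3964, 2950 and 560.3 on the knockout arrays, highest at 0 h. At 0 h and 1 h most of that was Ighm, which read 3371, 2308 and 268 on the wild-type arrays and 3571, 2563 and 304 on the knockout arrays. Pax5 was under the floor on all 6 arrays, Cd79a on 5 and Ms4a1 on 4. Dendritic cell markers (6 of 11 above a median) summed to 17175 to 19859 on the 6 arrays, mostly Cd74, and Flt3 was at most 61.2. Neutrophil markers (2 of 8) summed to 236 to 334 at 0 h and 1 h and to 752 and 1351 at 5 h, where S100a8 read 500.0 and 1135. The other 7 summed to 144 to 252 over the 6 arrays. T and NK cell markers (0 of 7) summed to at most 160 and fibroblast markers (2 of 7) to at most 336. The part of other cells in these changes was not tested, and in bulk RNA fewer cells of a type and less RNA per cell cannot be told apart.

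Between the genotypes, limma called none of the 8 genes. Over all genes 0% were called higher in knockout and 0.0133% lower. At an unadjusted p under 0.05 none of the 8 genes passed in either direction, and 631 of all 7508 genes did. With an intensity trend none of the 8 was called either. The members' shared differences, knockout minus wild type over the 3 times, ran from -0.40 ± 0.26 for Irf1 to 0.50 ± 0.46 for Irf4 with a median of 0.14 (all genes -0.03), and 6 of 8 were above 0. Adjusted p-values ran from 0.625 for Stat2 to 0.842 for Irf2. The SEs are of the order of the differences, so values that miss the threshold do not show that the genotypes were alike.

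**Figure D3:**
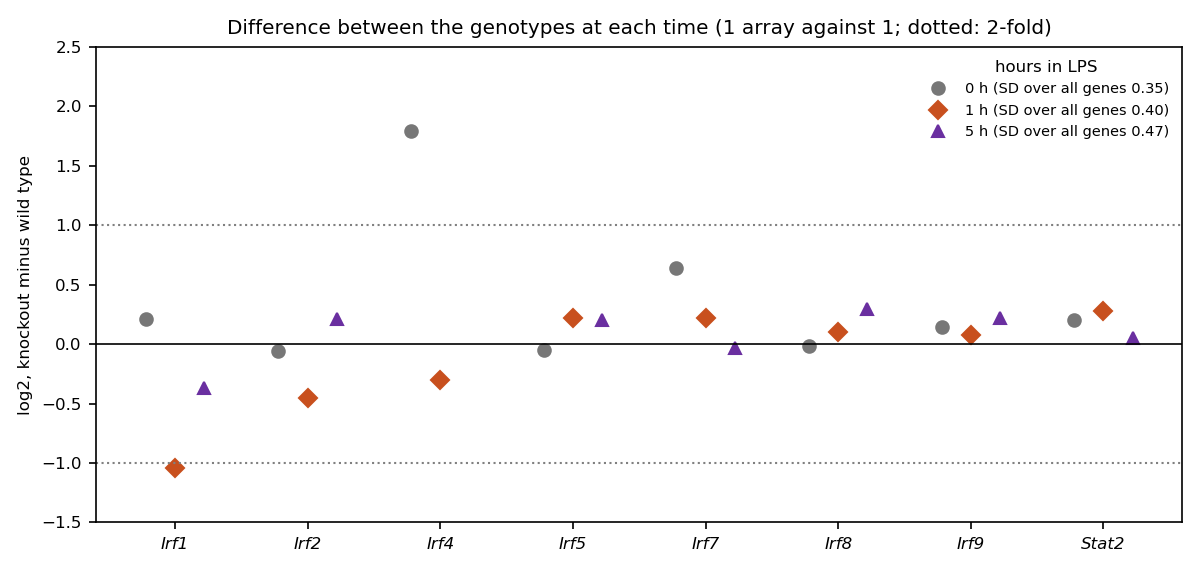
Log2 difference, knockout minus wild type, for the 8 genes at 0, 1 and 5 h of LPS (1 array against 1, no test); dotted lines mark a 2-fold difference, and Irf4 at 5 h is left out because both arrays were under the floor. Irf4 at 0 h (1.79) and Irf1 at 1 h (-1.05) lay outside the 2-fold lines.

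At single times, 2 values passed 2-fold. At 0 h, 1 of the 8 genes was at least 2-fold higher in knockout, Irf4, and none was lower (all genes 0.892% higher and 1.13% lower). Irf4 read 35.3 in the wild-type cells and 122 in the knockout cells on 1421173_at, a difference of 1.79. The other Irf4 probe set differed by 0.21 at 0 h, with 63.3 and 73.3. At 1 h, 1 gene was at least 2-fold lower in knockout, Irf1, and none was higher (all genes 1.08% higher and 1.86% lower). At 5 h none of the 8 passed 2-fold in either direction (all genes 1.77% higher and 3.04% lower), Irf4 having no measured difference there.

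Irf1 at 1 h read 5219 in the wild-type cells and 2529 in the knockout cells, a difference of -1.05. It had been 0.21 at 0 h and was -0.37 at 5 h, so the knockout signal was the lower of the pair at both times in LPS. Over all genes the SD of the same difference was 0.35 at 0 h, 0.40 at 1 h and 0.47 at 5 h. The change from 0 h in knockout minus that in wild type was -1.26 at 1 h for Irf1. For Irf7 the genotypes differed most at 0 h, where knockout read 1972 and wild type 1263 (0.64), and they lay close at 1 h (0.22) and 5 h (-0.03). For Irf5, Irf8, Irf9 and Stat2 the differences at single times ran from -0.05 to 0.29. For Irf2 the difference was -0.45 at 1 h (371 against 507), -0.06 at 0 h and 0.21 at 5 h.

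The other genes of the pathway were counted from lists. For comparison, 5.43% of all genes tested were called higher and 5.85% lower at 1 h, and 19.5% and 53.9% at 5 h. Of 8 tested ligands, receptors and JAK kinases, 3 were called higher at 1 h and none lower, Ifnb1, Ifnar1 and Jak2. Ifnb1, the gene of interferon β, read 88.2, 1629 and 127 in wild-type cells and 50.3, 1955 and 81.4 in knockout cells. It rose by 4.74 at 1 h (adjusted p = 0.00480) and was not called at 5 h (0.61, adjusted p = 0.132), though it was called higher there after quantile normalization (1.31, adjusted p = 0.0161) and median centring (1.37, adjusted p = 0.0109). At 1 h, when Ifnb1 was highest, Irf7 had not been called and Stat2 and Irf8 were at their lowest. At 5 h, 4 were higher and 1 lower (5 and 1 after quantile normalization, 7 and 1 after median centring). Jak2, a kinase of the interferon γ receptor, rose by 3.63, Ifnar1 by 1.59, Ifngr2 by 1.08 and Ifnar2 by 0.56, and Ifngr1, the ligand-binding chain of the interferon γ receptor, fell by 2.37. The call of Ifnar2 was lost after quantile normalization (0.30, adjusted p = 0.0604). The list's median at 5 h was 0.59 (all genes -0.56), and 1.35 after median centring (all genes 0.20).

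Of 6 other IRF and STAT genes tested, none was called at 1 h. At 5 h, 3 were higher, Stat5a by 2.71, Stat3 by 2.32 and Stat5b by 0.61. Another 2 were lower, where Stat6, the factor of interleukin 4 signalling, fell by 1.19 and Irf3 by 0.90. The median was -0.01 (all genes -0.56), and 0.75 (all genes 0.20) after median centring, when Irf3 was no longer called (-0.14, adjusted p = 0.404). Adaptors and kinases that activate IRFs (8 tested) had 2 called higher at 1 h, Traf6 by 1.17 and Myd88 by 0.81. At 5 h they had 4 higher and 3 lower (5 and 2 after median centring), against 19.5% and 53.9% of all genes at the deposited scale. Myd88 rose by 2.04, Tbk1, an IRF3 kinase, by 1.63, Ikbke by 1.01 and Tirap by 0.79. Mavs, the adaptor of the RNA sensors, fell by 2.13, Irak1 by 2.08 and Sting1 by 1.01. The call of Sting1 was lost after quantile normalization (-0.58, adjusted p = 0.0980) and median centring (-0.25, adjusted p = 0.426).

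Partners and cofactors (7 tested) had 1 call each way at 1 h, Batf (0.84) higher and Irf2bp1, a corepressor partner of IRF2, lower (-1.18). At 5 h, 4 were higher and 2 lower (4 and 1 after median centring). Batf2 rose by 4.45, Batf by 3.58, Ikzf1 by 3.16 and Spi1, which encodes PU.1, by 1.12, while Irf2bp1 fell by 1.47 and Crebbp by 1.03. The call of Crebbp was lost after quantile normalization (-0.28, adjusted p = 0.345) and median centring (-0.27, adjusted p = 0.326). Among 12 negative regulators, 2 were higher at 1 h, Socs3 by 8.17 and Socs1 by at least 2.99. At 5 h, 8 were higher and 1 lower (10 and 1 after median centring). Socs3 and Socs1, feedback inhibitors of JAK and STAT signalling, rose by 8.18 and at least 6.62, and Pias3 fell by 1.45. Socs1 was under the floor in wild type at 0 h.

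Of 21 type I interferon targets, 9 were higher at 1 h and none lower, and 20 were higher at 5 h with none lower. The median was 0.18 at 1 h and 3.18 at 5 h, against -0.18 and -0.56 over all genes. Mx2, an antiviral GTPase, rose by at least 6.66 at 5 h, being under the floor in wild type at 0 h, and Oasl1 by 5.68. Trim25, a ubiquitin ligase of RNA sensing, was the 1 that was not called (0.05, adjusted p = 0.753), and it was called higher after median centring (0.81, adjusted p = 0.00941). Of 21 interferon γ, IRF1 or IRF8 targets, 3 were higher at 1 h, Il12b (5.42), Casp4 (1.94) and Gbp2 (1.08). At 5 h, 19 were higher and 1 lower, with a median of 2.94. Nos2, the inducible nitric oxide synthase, was under the floor on the 4 arrays of 0 h and 1 h and rose by at least 8.15 at 5 h. Cxcl9, a chemokine of T cells, rose by 8.07. Cst3 fell by 0.35, but after median centring it was called higher by 0.42. In none of the 7 lists was a gene called between the genotypes, where 1 of all 7508 genes was called. Differences at single times (knockout minus wild type, 1 array against 1) were not tested and, over all lists, went both ways. Examples are Il12b at 1 h (-1.77) and 5 h (-1.74) and Socs1 at 1 h (1.16). At 0 h, however, every type I interferon target except Ifi35 (-0.05) and Bst2 (-0.01) read higher in knockout, as Irf7 did. By 5 h the differences of that list ran from -0.53 (Rsad2) to 0.24 (Adar). Its median in the fitted knockout against wild type comparison was 0.25, against -0.03 over all genes.

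**Figure D4:**
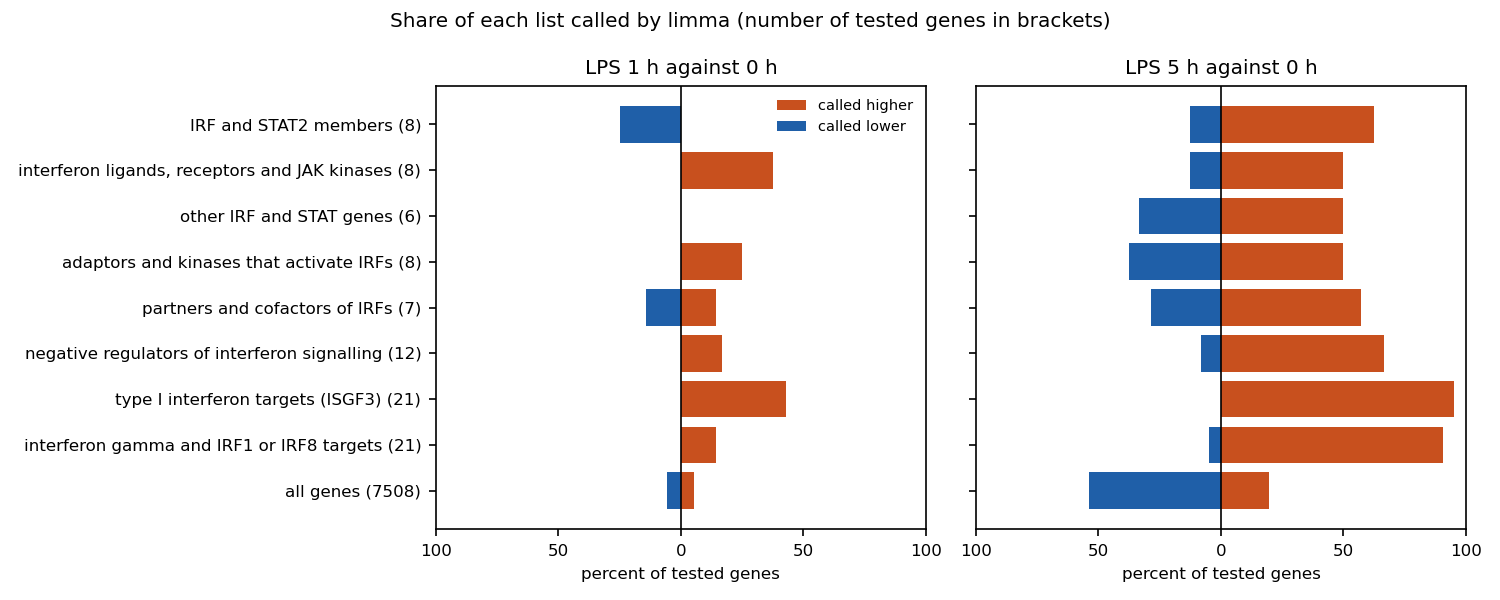
Percent of the tested genes of each list called higher (right of 0) or lower (left of 0) by limma at 1 h and 5 h of LPS, with the 8 IRF and STAT2 genes at the top and all 7508 genes at the bottom; the number tested is in brackets. At 5 h the type I interferon targets (20 of 21) and the interferon γ, IRF1 or IRF8 targets (19 of 21) had the highest shares called higher, against 19.5% of all genes.

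The genes whose pattern over the 6 arrays was most like each member's were found by the root mean square (RMS) difference of log2 signals, each centred on its own mean, among 7070 genes above the floor on all 6 arrays. These are descriptions over 6 arrays, and a pattern shared with the member follows from how the genes were picked. For Irf7 they were Ifi47, an interferon-inducible GTPase, (RMS 0.0831), Tpst1 (0.0934) and Nmi (0.139). Ifi47 read 1616, 1914 and 17655 in wild-type cells and 2303, 2200 and 15973 in knockout cells, with the higher knockout signal at 0 h that Irf7 also had. For Stat2 they were Irgm2, another such GTPase, (0.120), Gpsm2 (0.168) and Tap1, a peptide transporter, (0.186), and all 3 read lowest at 1 h and highest at 5 h in both genotypes.

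For Irf8 the most similar genes were 1600014C10Rik (0.135), Atg16l1, an autophagy gene, (0.152) and Zfp319 (0.152). Atg16l1 read 373, 168 and 785 in wild-type cells and 384, 169 and 724 in knockout cells, which shows the early low and the late high of Irf8. For Irf2 they were 4930453N24Rik (0.0844), Ptk2b (0.0880) and Trmt1l (0.106). For Irf1 the differences were larger, with Rffl (0.249), Clic4 (0.268) and Sh3bgrl2 (0.270). Sh3bgrl2 read 2682 in the wild-type cells and 1884 in the knockout cells at 1 h and 3884 and 2323 at 5 h, so its knockout signal was also the lower at both times in LPS. For Irf5 they were Srpr (0.0510), Pdia6 (0.0514) and Vwa5a (0.0514), and for Irf9 AY036118 (0.0260), Xdh (0.0412) and Nae1 (0.0461). Irf4 was under the floor at 5 h and had no such comparison.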

How the data were processed

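Total RNA of 6 macrophage cultures, 1 for each genotype and time, was hybridised to 1 array each. The authors deposited a linear signal intensity per probe set, made with MAS5 per the submitters' processing notes. Its version and scaling target: not given in the sources used here. Symbols came from GEO's platform annotation: of 22690 probe sets, 20380 have 1 symbol, 691 several, 1555 none and 64 are controls. Signals were raised to 18.2, log2-transformed and fitted with limma 3.58.1 in R 4.3.3. Probe sets that never exceeded the median of their array were dropped, and the one with the highest mean stood for its gene. Simulated data were used to test the fit. As each group has 1 array, precision rests on 6 arrays, and nothing states that cultures were independent. The p-values measure only the spread around the additive fit. That spread may be technical, and it also holds any difference between the genotypes in their response to LPS.

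The members and lists were chosen with earlier results of these data known. Named genes were the 8 members, Nfkbib and Ifnb1, the 3 most similar genes per member, the 2 highest and the lowest change of each list at 5 h, and list members called in a count of 5 or fewer; cell markers and sex-linked genes were checks. Alternatives were quantile normalization, median centring, a floor at the 10th percentile, no filter, the mean of a gene's probe sets, each probe set alone, an intensity trend, and leaving out each array. The fit of every probe set with no filter was added after the data were seen. Listed genes without a probe set of 1 symbol were not analysed here. Promoter sequences are RefSeq's, build GRCm38.p6.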

Additional observations from a re-analysis of the deposited data

Results flagged for a closer look

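At 1 h against 0 h, Irf2 and Irf7 read in opposite directions in the genotypes. For Irf2 the change was 0.07 in wild type and -0.33 in knockout, a difference of -0.40. For Irf7 it was 0.14 in wild type and -0.28 in knockout, a difference of -0.43. Each change is 1 array against 1, so the differences were not tested. From 0 h to 1 h the array median fell from 113 to 105 in wild type and from 117 to 98.7 in knockout. The size of changes this small therefore depends on the scale. The SD over all genes of the knockout minus wild-type difference at a single time was 0.35 at 0 h and 0.40 at 1 h. For a difference of changes, which draws on both times, the SD was not computed. Neither gene was called at 1 h in the fit over both genotypes.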

How the results depend on the processing

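The rises of Irf1, Irf2, Irf7, Irf8 and Stat2 at 5 h over 0 h and the fall of Irf4 from 1 h to 5 h kept direction and call under every alternative in which they were fitted. For the members at 1 h, 2 were called higher after median centring and with an intensity trend, and 1 lower after median centring and 0 without the filter. At 5 h, 0 were called lower after quantile normalization or without the filter. Over all genes median centring gave 269 lower at 1 h, 2926 higher and 2030 lower at 5 h, 2734 higher and 1807 lower for 5 h against 1 h, and 2 higher and 4 lower in knockout. Without the filter 146 were higher and 100 lower at 1 h, and 0 lower in knockout, as with the floor at the 10th percentile. An intensity trend gave 915 lower at 1 h, and 4 higher and 5 lower in knockout.

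With each array left out in turn, 0 to 1 of the members were called higher and 0 to 2 lower at 1 h, and 0 to 1 lower at 5 h. Over all genes the counts were 100 to 362 higher and 12 to 345 lower at 1 h, 874 to 1234 higher and 2227 to 3130 lower for 5 h against 1 h, and 0 to 1 in each direction in knockout. The lowest count of genes called higher at 1 h came without the wild-type 1 h array. Among the fitted changes of the members, the only changes of sign were in values not called. After median centring Irf2 (0.048), Irf7 (0.11) and Irf9 (0.078) were above 0 at 1 h. Irf4 in knockout against wild type was -0.56 with the floor at the 10th percentile, where its other probe set stood for the gene, and ran from -0.15 to 0.89 with arrays left out. With arrays left out, Irf2 in knockout against wild type ran from -0.25 to 0.077, Irf2 at 1 h from -0.39 to 0.13, and Irf7 at 1 h from -0.34 to 0.21. Why these counts and signs changed was not tested.

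No paired analysis was possible because each genotype and time has 1 array and the labels give no replicate numbers; the time comparisons already hold genotype as a term. Signals near the floor, as for Irf4 at 0 h and 5 h, limit what can be measured.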
